A study of Mus musculus with 32 samples.

Results

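The genes described here are 33 genes of glycolysis and of the response to low oxygen in mouse bone marrow derived macrophages (BMDMs). They were chosen by a list of symbols. Each Ensembl identifier of the deposited count table was matched, without its version number, to the list, and 33 of 54281 identifiers were found. All 33 passed the filter on low counts and were tested among 15257 genes. The macrophages came from *Trex1* FL/FL mice, in which both alleles of the DNA exonuclease gene *Trex1* are flanked by loxP sites, or from *Trex1* WT/FL mice, which keep 1 wild-type allele. Both genotypes carried R26 CreERT2, a ubiquitously expressed Cre recombinase that needs 4-hydroxytamoxifen (4-OHT) to enter the nucleus, so the WT/FL controls also held Cre and could lose their floxed allele. Cells were differentiated with L929 supernatant, left untreated or exposed to 2 µg/ml 4-OHT for 22 h, and sequenced on day 1, 2, 3 or 4 after treatment. Genotype, treatment and day gave 16 groups of 2 libraries, 32 in all. The labels give no animal, culture or batch for a library, so every p-value below measures only the spread between libraries, which may be technical.

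Glycolysis breaks glucose down to pyruvate in the cytosol, and its flow is set largely at the hexokinase and phosphofructokinase steps and by fructose 2,6-bisphosphate, which the PFKFB enzymes make and degrade. The transcription factor HIF-1α is hydroxylated by the prolyl hydroxylases of the EGLN family and degraded while oxygen is plentiful. When it is stable it pairs with ARNT and binds the core letters ACGTG or GCGTG near many of the genes listed here, among them *Egln3* itself and *Vegfa*, the vascular growth factor. Activated macrophages are known for increased glycolysis, and HIF-1α is one of its known regulators in these cells.

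Library totals ran from 35120505 to 63760884 counts, with a median of 44841991. In 4-OHT-treated FL/FL libraries *Trex1* had 14 and 9 counts on day 2 and 0 in each library of the other days, against 758 to 3622 counts in 4-OHT-treated WT/FL and 1174 to 6553 counts in untreated libraries. All 8 macrophage markers were detected, with a summed level of 15300 to 48700 CPM (counts scaled to a common library size), whereas the summed lymphocyte and erythroid markers stayed at or below 0.173 and 0.0495 CPM. The pair of untreated FL/FL libraries on day 1 had the highest chi-square between replicates, 51.5 per degree of freedom against 9.55 to 21.8 in the other pairs. Replicate 2 of that pair had 130 CPM of *Slc16a3* and 138 CPM of *Hk3*, where replicate 1 had 187 and 173 CPM. In RNA of whole cultures, fewer cells of a type and less RNA per cell cannot be told apart.

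The most abundant members, per kilobase of annotated exon and averaged over the 32 libraries, were 4 glycolytic enzymes. *Pgk1*, phosphoglycerate kinase, averaged 297 CPM per kb, *Aldoa*, the main aldolase, 281 CPM per kb, *Pgam1*, phosphoglycerate mutase, 237 CPM per kb, and *Gapdh*, the glyceraldehyde 3-phosphate dehydrogenase, 224 CPM per kb, and the ranges of these 4 genes over the libraries overlapped. This order depends on the length, which merges all annotated exons of a gene, 7160 bases for *Gapdh* and 2244 for *Pgk1*. By CPM alone *Pkm* averaged 2410, *Gapdh* 1600, *Aldoa* 1510, *Eno1* 1030 and *Pgk1* 667. *Hk3* led the hexokinases at 41.1 CPM per kb, before *Hk1* at 18.1 and *Hk2* at 6.87. Of the glucose transporters, *Slc2a1* (GLUT1) stood at 17.5 CPM per kb and *Slc2a3* (GLUT3) at 1.33. *Vegfa* averaged 16.0 CPM per kb. *Adm*, the adrenomedullin gene and a classical hypoxia target, had a mean of only 4.16 counts per library, so no fold change is given for it. Together the members took between 0.642% and 1.72% of a library's counts. Some of these counts are less certain, because the transcripts share many 31-base words with other genes. Such words made up 67.2% of *Ankrd37*, 53.4% of *Pgk1*, 42.7% of *Gapdh*, 39.4% of *Slc16a3*, 36.8% of *Bnip3* and 36.4% of *Pfkl*. Processed copies and relatives of *Gapdh* held 18.6% of the counts summed over gene and copies, and *Cfap410*, which shares sequence with *Pfkl*, held 11.1%. The counting strand is not given in the sources used here.

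Most members changed with time in untreated culture, the glycolytic enzymes mainly down and *Vegfa* and the PFKFB genes up. From day 1 to day 4 in untreated cells of both genotypes, 6 members rose and 20 fell (edgeR quasi-likelihood test, adjusted p below 0.01 over all genes). Such calls were frequent at large, with 32.7% of all tested genes higher and 31.3% lower. The members' median log2 change was −0.30, against 0.03 over all genes, and between 25 and 27 members were called when any 1 library was left out. Among the members that fell, *Pgk1* changed by −1.19 ± 0.05 (SE), *Ldha*, lactate dehydrogenase, by −1.21 ± 0.06, and *Slc2a1* by −1.30 ± 0.08. *Slc2a1* was at 164 and 164 CPM in WT/FL and 170 and 174 CPM in FL/FL on day 1, and then at 54.6 to 62.0, 47.4 to 57.5 and 60.1 to 76.2 CPM for days 2, 3 and 4. The libraries of day 1 lay above all later ones.

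The 6 members that rose in untreated culture were *Vegfa*, *Eno2*, *Pfkfb3*, *Pfkfb4*, *Hif1a* and *Pfkm*. *Pfkfb3*, the PFKFB form with the highest kinase activity, went from 20.3 to 23.3 CPM on day 1 to 102 to 118 CPM on day 3 and 73.1 to 92.2 CPM on day 4, a log2 change of 1.89 ± 0.09 from day 1 to day 4 (adjusted p = 2.47e-14). *Eno2*, the enolase form typical of neurons, was low throughout and went from 1.04 to 1.28 CPM to 3.81 to 4.79 CPM (log2 change 1.90 ± 0.18). Groups of day 1 and day 4 did not overlap for either gene. *Hif1a* changed by 0.73 ± 0.06 and *Pfkm*, the muscle type phosphofructokinase, by 0.57 ± 0.06. In 4-OHT-treated WT/FL cells 6 members rose and 23 fell from day 1 to day 4, beside 27.7% and 26.7% of all genes. The 4-OHT-treated FL/FL cells had 8 members higher and 22 lower, beside 28.3% and 27.7% of all genes. Their medians were −0.43 and −0.86 on the log2 scale, and the share of counts in the members came to 0.973% and 0.846% in the day 4 WT/FL libraries and to 0.651% and 0.642% in the FL/FL libraries.

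**Figure D1:**
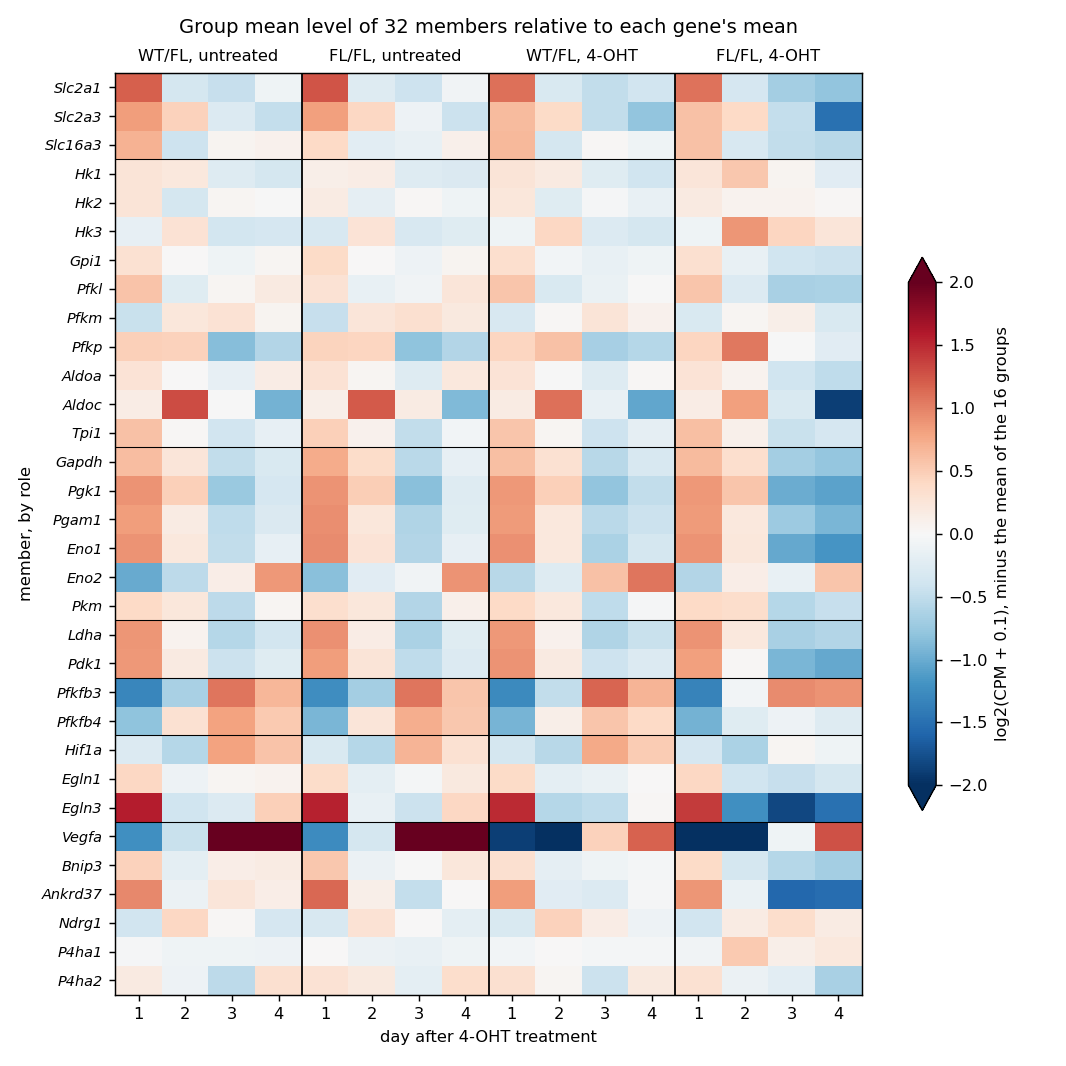
Group mean of log2(CPM + 0.1) for 32 members (*Adm* is left out) in the 16 groups, minus each gene's mean over the groups, with members in rows by role and days 1 to 4 in columns within each genotype and treatment (colours are saturated beyond 2 log2 units). *Pgk1*, *Pgam1*, *Eno1*, *Ldha* and *Slc2a1* are reddest on day 1 in every block. *Vegfa* is deepest blue on days 1 and 2 of both 4-OHT blocks, and paler there on days 3 and 4 than in the untreated blocks. The 4-OHT-treated FL/FL block is bluer than the other blocks on days 3 and 4 for *Egln3*, *Ankrd37* and *Eno1*. On day 4 the same holds for *Aldoc*.

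The promoters of 6 members are printed here to be read against the letters that HIF binds. *Vegfa* and *Pfkfb4* are the members followed most closely here, and both were picked with their changes in these data already known. Their p-values below are therefore no independent evidence. *Egln3* and *Ankrd37* had the largest genotype differences under 4-OHT on days 3 and 4, and *Hk3* and *Pfkp* were higher in FL/FL on days 2 to 4. Of the 33 members, 31 were found in RefSeq's promoter table, with 45 promoters of 300 bases (250 before to 50 after the transcription start, build GRCm38.p6). *Slc2a3* and *Ndrg1* were not found. Each was searched on both strands for ACGTG and GCGTG. At least 1 of these letter strings stood in 36 of the 45 promoters and in 43.8% of all 32851 promoters of the same length, and ACGTG alone in 25 of 45 against 19.6% of all. A full oestrogen response element, the DNA element bound by oestrogen receptors, was found in 0 of 45 promoters and in 0.1% of all. It is so rare, in 23 of 32851 promoters, that a count of 0 among 45 says nothing about the members. Both strings hold a CG pair, and base composition was not matched between member promoters (36.7% to 86.0% G and C) and all promoters. Some stretches of the same gene overlap, as in *Aldoa* and *Eno1*, so 1 string can be counted in more than 1 promoter. The list was also made of glycolysis and low-oxygen genes, so the contrast with all promoters is no test. A match is a description of these letters and not of a bound site. The capitals mark ACGTG or GCGTG, or CACGT or CACGC where the string lies on the other strand.
Vegfa, upstream start (chr17:46032328-46032627, minus strand): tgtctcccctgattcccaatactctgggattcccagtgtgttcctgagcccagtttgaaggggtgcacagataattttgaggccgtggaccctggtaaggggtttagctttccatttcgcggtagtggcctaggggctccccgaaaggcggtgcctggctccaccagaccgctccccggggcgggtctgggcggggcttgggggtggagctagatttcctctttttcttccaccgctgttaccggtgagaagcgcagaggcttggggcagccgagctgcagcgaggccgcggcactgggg
Vegfa, start inside the gene (chr17:46025114-46025413, minus strand): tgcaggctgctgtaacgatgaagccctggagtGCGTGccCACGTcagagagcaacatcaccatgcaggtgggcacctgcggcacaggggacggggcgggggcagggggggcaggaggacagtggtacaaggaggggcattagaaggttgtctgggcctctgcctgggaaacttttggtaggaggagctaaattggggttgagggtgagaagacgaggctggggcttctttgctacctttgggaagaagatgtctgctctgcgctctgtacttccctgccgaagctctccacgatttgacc
Pfkfb4 (chr9:108991652-108991951, plus strand): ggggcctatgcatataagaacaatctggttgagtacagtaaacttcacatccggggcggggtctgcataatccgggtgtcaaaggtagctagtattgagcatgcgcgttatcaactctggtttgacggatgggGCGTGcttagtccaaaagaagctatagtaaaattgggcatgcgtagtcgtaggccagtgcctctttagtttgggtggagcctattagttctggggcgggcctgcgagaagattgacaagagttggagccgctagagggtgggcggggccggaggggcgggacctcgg
Egln3 (chr12:54203825-54204124, minus strand): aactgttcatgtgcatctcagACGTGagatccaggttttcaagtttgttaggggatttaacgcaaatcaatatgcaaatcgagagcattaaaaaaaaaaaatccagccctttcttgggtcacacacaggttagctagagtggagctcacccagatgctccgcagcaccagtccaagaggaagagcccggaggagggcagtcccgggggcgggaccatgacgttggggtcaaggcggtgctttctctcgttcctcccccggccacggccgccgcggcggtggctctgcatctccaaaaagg
Ankrd37 (chr8:45999801-46000100, minus strand): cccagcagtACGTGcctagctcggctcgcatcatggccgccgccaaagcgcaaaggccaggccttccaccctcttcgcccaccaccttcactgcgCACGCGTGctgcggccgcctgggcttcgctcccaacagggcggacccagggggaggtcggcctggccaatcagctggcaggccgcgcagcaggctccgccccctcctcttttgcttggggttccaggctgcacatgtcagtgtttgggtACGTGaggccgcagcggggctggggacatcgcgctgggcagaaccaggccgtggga
Hk3 (chr13:55021336-55021635, minus strand): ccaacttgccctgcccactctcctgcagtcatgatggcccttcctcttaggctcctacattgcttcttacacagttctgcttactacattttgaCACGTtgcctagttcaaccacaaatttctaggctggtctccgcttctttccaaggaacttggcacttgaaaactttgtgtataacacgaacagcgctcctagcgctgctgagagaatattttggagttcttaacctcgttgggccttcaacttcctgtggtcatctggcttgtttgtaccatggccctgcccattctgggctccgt
Pfkp (chr13:6648722-6649021, minus strand): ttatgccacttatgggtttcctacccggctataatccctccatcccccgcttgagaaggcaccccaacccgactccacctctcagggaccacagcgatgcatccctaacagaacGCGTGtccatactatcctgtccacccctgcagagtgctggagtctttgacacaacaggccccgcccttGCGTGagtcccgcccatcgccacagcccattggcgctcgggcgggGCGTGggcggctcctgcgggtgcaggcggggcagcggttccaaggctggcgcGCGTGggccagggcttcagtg
Of the *Vegfa* stretches, that at the upstream start holds neither string, and that at the start inside the gene holds both. Bases more than 250 before a start were not searched, so a string there would not be seen. In *Ankrd37* 2 of the strings overlap on opposite strands.

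*Vegfa* (ENSMUSG00000023951.17), on chromosome 17 from 46327919 to 46343309 on the minus strand (GRCm39), was the member with the largest response to 4-OHT, and it fell in both genotypes. Untreated WT/FL libraries had 17.3 and 15.1, 29.6 and 26.4, 191 and 142, and 206 and 186 CPM for days 1 to 4 in turn. Untreated FL/FL libraries had 14.4 and 17.5, 30.0 and 29.6, 148 and 161, and 198 and 180 CPM on the same days. With both genotypes together *Vegfa* rose by 3.58 ± 0.12 on the log2 scale from day 1 to day 4 (adjusted p = 3.48e-15), and by 3.52 to 3.65 without any 1 library. After 4-OHT, WT/FL libraries had 11.2 and 9.30, 7.01 and 6.99, 63.2 and 43.4, and 93.8 and 79.1 CPM. FL/FL libraries treated with 4-OHT had 9.69 and 9.23, 8.59 and 9.32, 32.9 and 38.7, and 94.8 and 88.8 CPM. On each of the 4 days all 4-OHT-treated libraries lay below all untreated ones. Every 4-OHT-treated library also held CreERT2 and a floxed *Trex1* allele, and no group lacked Cre. The drug itself, Cre activity and loss of an allele therefore cannot be told apart in the 4-OHT effects.

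Averaged over days 2 to 4, the log2 change of *Vegfa* under 4-OHT was −1.61 ± 0.10 in WT/FL, a 3.05-fold lower level (adjusted p = 6.42e-09), and −1.63 ± 0.10 in FL/FL, a 3.09-fold lower level (adjusted p = 9.7e-11). The difference between these effects was −0.02 ± 0.14 (adjusted p = 0.97), and leaving out single libraries moved it between −0.10 and 0.08. By day, the change in WT/FL came to −2.00 ± 0.18, −1.64 ± 0.16 and −1.18 ± 0.16 for days 2, 3 and 4, and in FL/FL to −1.73 ± 0.18, −2.10 ± 0.16 and −1.04 ± 0.16, all called. On day 1, with both genotypes together, it was −0.71 ± 0.13 and not called by edgeR (adjusted p = 0.0661), whereas the DESeq2 Wald test called it (adjusted p = 5.32e-08). Without replicate 1 of the untreated FL/FL group of day 1 edgeR also called it, at −0.77 (adjusted p = 0.00349). From day 1 to day 2 the change was 0.79 ± 0.17 in untreated WT/FL (adjusted p = 0.000887) and −0.55 ± 0.19 in 4-OHT-treated WT/FL, the latter not called (adjusted p = 0.0248). From day 3 to day 4 the 4-OHT-treated cells rose by 0.70 ± 0.16 in WT/FL and 1.35 ± 0.16 in FL/FL while untreated cells changed by 0.24 ± 0.15 and 0.29 ± 0.15 with no call. Between genotypes under 4-OHT, the *Vegfa* level of day 3 differed by −0.57 ± 0.16 (adjusted p = 0.0171), that of day 2 by 0.35 ± 0.20 and that of day 4 by 0.09 ± 0.16, with no call. The day 3 difference was called without replicate 2 of the WT/FL group (−0.82, adjusted p = 0.0011) and by DESeq2 (−0.56, adjusted p = 0.000743), and without replicate 1 of that group it shrank to −0.27.

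*Vegfa* was the one member called in the 4-OHT effect of WT/FL cells on days 2 to 4. Among all tested genes, 0.315% were higher and 0.531% lower in that comparison. The members' median was −0.04 against 0.00 over all genes. The next smallest adjusted p belonged to *Pfkfb4*, at 0.0133. On day 1, 0 members were called by edgeR in either direction, beside 0% of all genes higher and 0.0262% lower, and 6 had an unadjusted p below 0.05. DESeq2 called 1 member there, *Vegfa*. Without replicate 1 of the untreated FL/FL group edgeR also called members there, with the share over all genes not worked out.

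**Figure D2:**
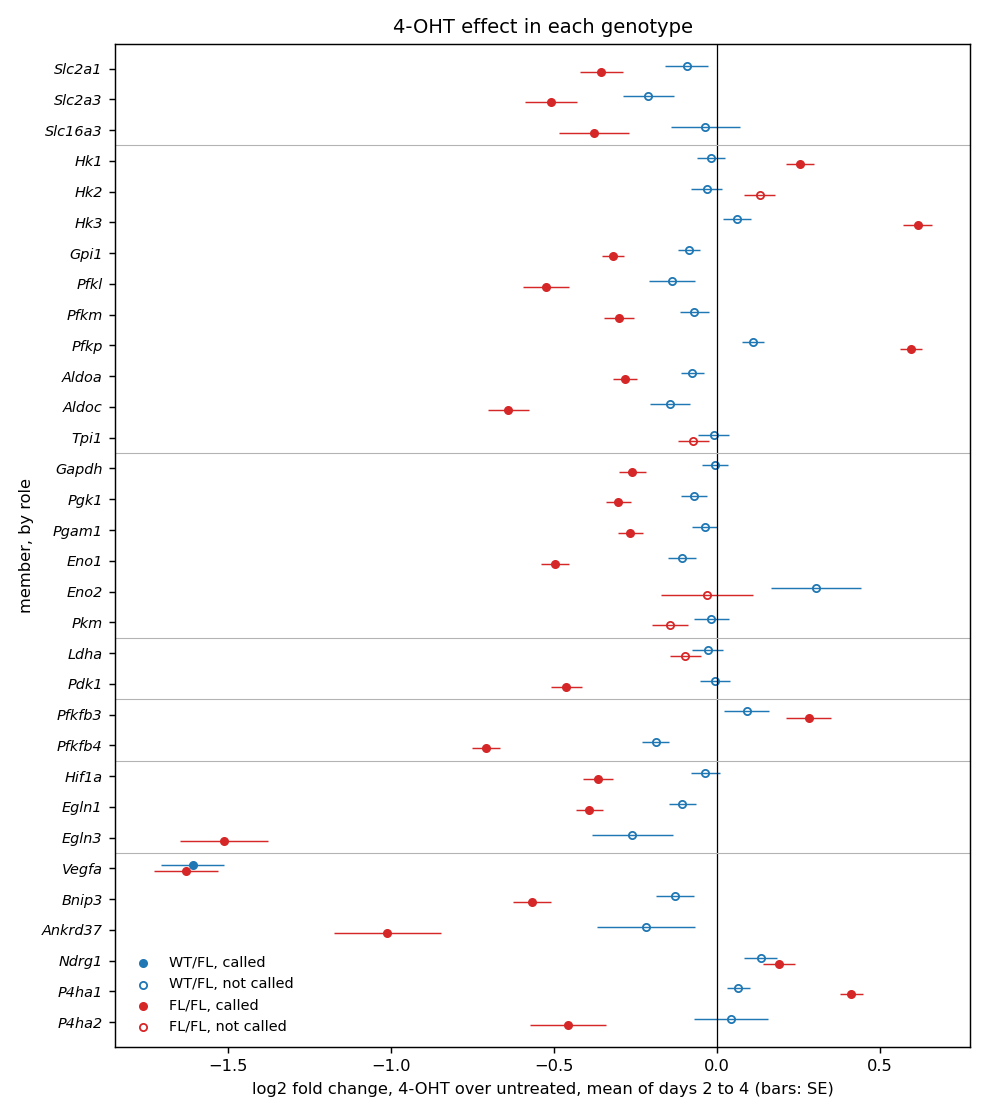
Log2 fold change of 4-OHT-treated over untreated cells, averaged over days 2 to 4, for 32 members in *Trex1* WT/FL (blue) and FL/FL (red), with bars of 1 SE and filled points where the adjusted p was below 0.01. *Vegfa* sits near −1.6 in both genotypes, while most other blue points are open and near 0 and most red points are filled and below 0.

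In FL/FL cells, where Cre can act on both *Trex1* alleles, 27 of 33 members were called in the same comparison, 6 higher and 21 lower, beside 14.6% of all genes higher and 15.8% lower. Their median was −0.32 against −0.03 over all genes, and 2 members, *Vegfa* and *Egln3*, also passed an absolute log2 change of 1.5. Of all 15257 genes, 211 higher and 101 lower passed it. The test of whether the 4-OHT effect differed between genotypes called 20 members. In 16 of them the effect was lower in FL/FL, where 7.45% of all genes were lower, and in 4 it was higher, where 8.2% were higher. The 4 were *Hk3* (0.55 ± 0.06), *Pfkp* (0.49 ± 0.05), *P4ha1* (0.35 ± 0.05) and *Hk1* (0.27 ± 0.06). Of the 16, *Egln3* differed by −1.25 ± 0.18 (adjusted p = 9e-06), *Ankrd37* by −0.79 ± 0.22 (adjusted p = 0.00946), *Pfkfb4* by −0.52 ± 0.06 (adjusted p = 1.29e-07) and *Aldoc* by −0.49 ± 0.09 (adjusted p = 0.000102). The call of *Ankrd37* was lost in 19 of the 24 fits that left out 1 library, with values from −0.93 to −0.59 and the smallest size without replicate 1 of the 4-OHT-treated WT/FL group of day 3 (adjusted p = 0.0382). Within roles, all 3 oxygen-sensing genes, 4 of 6 enzymes of lower glycolysis and 5 of 10 of upper glycolysis were among the 16, and 0 of the 3 transporters.

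*Pfkfb4* (ENSMUSG00000025648.18), on chromosome 9 from 108820832 to 108862847 on the plus strand (GRCm39), codes for a bifunctional enzyme that makes and breaks fructose 2,6-bisphosphate. Untreated WT/FL libraries had 20.4 and 24.7, 49.4 and 47.9, 69.3 and 68.0, and 57.3 and 55.3 CPM for days 1 to 4. Untreated FL/FL libraries had 21.1 and 20.6, 46.9 and 46.2, 61.8 and 68.9, and 55.9 and 58.1 CPM. The gene rose by 1.39 ± 0.05 from day 1 to day 4 without 4-OHT (adjusted p = 6.98e-19), and by 1.32 to 1.46 without any 1 library. With 4-OHT, WT/FL libraries had 20.6 and 20.4, 42.2 and 42.8, 61.0 and 54.7, and 50.6 and 52.9 CPM, and FL/FL libraries 20.0 and 20.5, 32.2 and 34.0, 36.7 and 36.8, and 30.9 and 34.6 CPM. From day 2 on, both 4-OHT-treated FL/FL libraries lay below the other 6 of the same day.

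The 4-OHT effect on *Pfkfb4* was −0.19 ± 0.04 in WT/FL, which missed the threshold (adjusted p = 0.0133), and −0.71 ± 0.04 in FL/FL, a 1.63-fold lower level (adjusted p = 1.66e-13). DESeq2 called the WT/FL effect at −0.19 (adjusted p = 0.00161), as did edgeR without replicate 1 of the 4-OHT-treated WT/FL group of day 3, at −0.21 (adjusted p = 0.0073). By day, FL/FL cells changed by −0.04 ± 0.08, −0.49 ± 0.07, −0.83 ± 0.07 and −0.80 ± 0.07 for days 1 to 4, the last 3 called. The difference between genotypes under 4-OHT, for the same days, came to −0.02 ± 0.08, −0.36 ± 0.07, −0.66 ± 0.07 and −0.66 ± 0.07, again with the last 3 called. The call of day 2 was lost without replicate 2 of the 4-OHT-treated WT/FL group (−0.35, adjusted p = 0.0136) and without replicate 1 of the 4-OHT-treated FL/FL group (−0.32, adjusted p = 0.0301). The level in FL/FL did not go below that of day 1. From day 1 to day 4 *Pfkfb4* rose by 0.69 ± 0.08 in 4-OHT-treated FL/FL (adjusted p = 7.7e-09), against 1.33 ± 0.07 in 4-OHT-treated WT/FL, and the change of the genotype difference from day 1 to day 4 was −0.64 ± 0.11 (adjusted p = 5.87e-05).

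**Figure D3:**
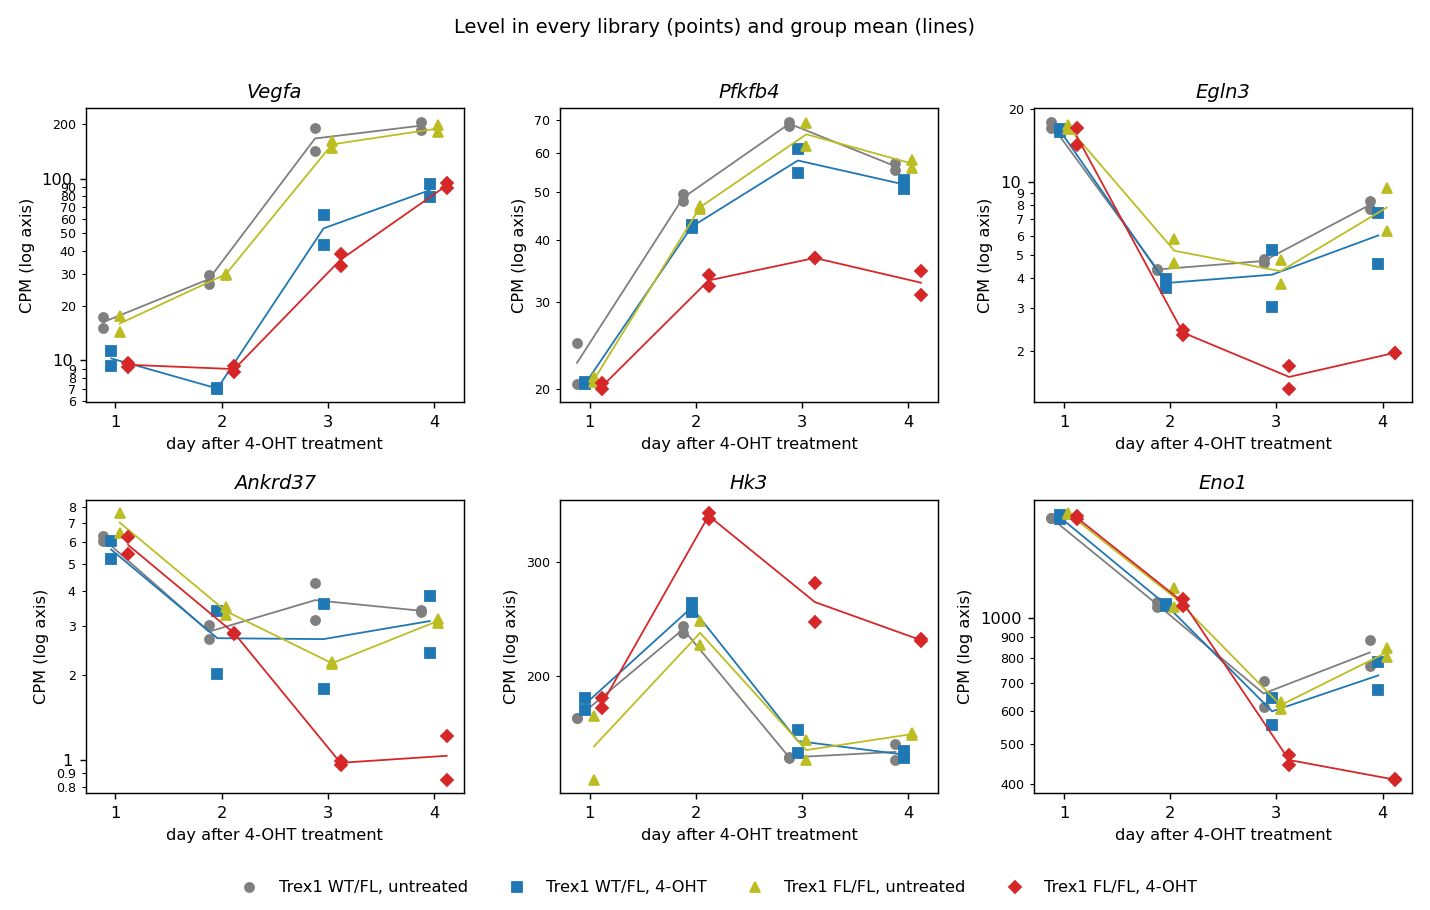
Level in CPM (log axis) of 6 members in every library (points, 2 per group) and group means (lines) over days 1 to 4 after treatment. The 4-OHT-treated libraries of both genotypes sit below the untreated ones for *Vegfa*, whereas for *Pfkfb4*, *Egln3*, *Ankrd37* and *Eno1* the 4-OHT-treated FL/FL libraries come to lie below the rest by day 4 and for *Hk3* above them from day 2.

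The study's own comparison set FL/FL against WT/FL macrophages, both treated with 4-OHT, day by day. The 4 days share no libraries with each other, but each shares its libraries with the 4-OHT effects above. Untreated cells of the genotypes served as the background: 0 members were called over all 4 days, beside 0.0131% of all genes higher and 0.00655% lower, and 2 members, *Gapdh* and *Hif1a*, had an unadjusted p below 0.05. On day 1 after 4-OHT 0 members were called, beside 0.00655% of all genes higher and 0.0131% lower, and 0 had an unadjusted p below 0.05. DESeq2 called 0 in both. Outside *Adm* the differences of day 1 lay between −0.11 and 0.06 on the log2 scale.

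By day 2, 4 members were higher and 1 was lower in FL/FL, beside 5.69% and 2.48% of all genes. *P4ha1*, a subunit of the collagen prolyl 4-hydroxylase, had 180 and 191 CPM in FL/FL and 133 and 126 CPM in WT/FL, a difference of 0.52 ± 0.06 (adjusted p = 4.98e-07). *Pfkp*, the platelet type phosphofructokinase, had 205 and 213 CPM against 145 and 156 CPM (0.47 ± 0.06, adjusted p = 9.12e-07). *Hk3*, a hexokinase of myeloid cells, had 350.0 and 357 CPM against 259 and 251 CPM (0.47 ± 0.07, adjusted p = 3.65e-05). The FL/FL libraries of these 3 genes also lay above all untreated libraries of day 2. *Hk1*, the most widely expressed hexokinase, had 240.0 and 213 CPM against 179 and 174 CPM (0.36 ± 0.07, adjusted p = 0.000812), and this call was lost without replicate 1 of FL/FL (0.27, adjusted p = 0.0535) or replicate 2 of WT/FL (0.34, adjusted p = 0.0185). With either of these libraries left out, fewer members were called on day 2, and the share over all genes was not worked out. The fifth call was *Pfkfb4*. *Pfkfb3* differed by 0.44 ± 0.12 and missed the threshold (adjusted p = 0.019), with 49.1 and 50.9 CPM against 38.1 and 35.5 CPM.

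On day 3 the calls were 3 members higher and 10 lower, beside 6.69% and 5.42% of all genes. *Hk3* (278 and 242 CPM in FL/FL, 152 and 165 CPM in WT/FL, 0.71 ± 0.07) and *Pfkp* (98.9 and 100 against 62.9 and 64 CPM, 0.65 ± 0.06) were again higher, and so was *Hk1* (0.29 ± 0.07). *Hif1a* had 171 and 218 CPM in FL/FL and 332 and 304 CPM in WT/FL, with untreated libraries between 291 and 332 CPM, a difference of −0.71 ± 0.08 (adjusted p = 1.81e-07). Both FL/FL libraries lay below the other 6. All 3 oxygen-sensing members were lower, *Egln1*, the main prolyl hydroxylase acting on HIF-1α, by −0.34 ± 0.07 and *Egln3* by −1.39 ± 0.24. The count of calls moved with single libraries. It was lowest without replicate 1 of the WT/FL group, where as many members were called higher as lower. It also fell without replicate 1 of the FL/FL group. Shares over all genes were not worked out for fits on fewer libraries. Whether lower calls stayed more frequent among the members than among all genes is therefore not shown there. In a fit of the day 3 libraries alone 7 were called, and *Hif1a* (−0.71, adjusted p = 0.0189) and *Ankrd37* (−1.46, adjusted p = 0.0166) were not among them.

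Day 4 had the most calls, 3 members higher and 20 lower, beside 9.84% and 11.7% of all genes. The members' median was −0.49 against −0.04 over all genes. Higher were *Hk3* (226 and 228 CPM in FL/FL, 149 and 153 CPM in WT/FL, 0.58 ± 0.07), *Pfkp* (84.3 and 87.7 against 70.7 and 64.5 CPM, 0.35 ± 0.06) and *P4ha1* (139 and 158 against 125 and 124 CPM, 0.26 ± 0.06). Among the 20 lower, *Eno1*, the main enolase, had 411 and 410.0 CPM against 785 and 672 CPM, where untreated libraries had 769 to 884 CPM, a 1.78-fold lower level (−0.83 ± 0.07, adjusted p = 1.37e-09). *Aldoc*, the brain type aldolase, had 12.3 and 12.1 CPM against 22.2 and 21.7 CPM (−0.85 ± 0.12, adjusted p = 3.14e-06). *P4ha2*, the second catalytic subunit of the collagen prolyl 4-hydroxylase, had 3.54 and 4.54 CPM against 7.12 and 7.57 CPM (−0.86 ± 0.20, adjusted p = 0.00159). None of these FL/FL libraries overlapped with WT/FL. The call of *P4ha2* was lost without replicate 2 of WT/FL (−0.82, adjusted p = 0.0138) or replicate 1 of FL/FL (−0.70, adjusted p = 0.0517).

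Across roles on day 4, 5 of 6 enzymes of lower glycolysis were lower: *Eno1*, *Pgk1* (−0.59 ± 0.07), *Pgam1* (−0.50 ± 0.07), *Gapdh* (−0.46 ± 0.07) and *Pkm*, pyruvate kinase (−0.44 ± 0.09). The sixth, *Eno2*, differed by −0.54 ± 0.23 with no call. In upper glycolysis 5 of 10 were lower and 2 higher. The lower ones were *Aldoc*, *Pfkl*, the liver type phosphofructokinase (−0.64 ± 0.12), *Aldoa* (−0.54 ± 0.06), *Pfkm* (−0.39 ± 0.08) and *Gpi1*, glucose 6-phosphate isomerase (−0.34 ± 0.06). *Tpi1*, triose phosphate isomerase, and *Hk1* and *Hk2* were not called, at −0.15, 0.16 and 0.16. Of the transporters, *Slc2a3* had 3.21 and 3.09 CPM in FL/FL and 5.5 and 4.89 CPM in WT/FL (−0.72 ± 0.15) and *Slc2a1* 44.6 and 38.5 CPM against 61.5 and 49.6 CPM (−0.42 ± 0.12), while *Slc16a3*, the lactate exporter MCT4, differed by −0.49 ± 0.19 with no call (adjusted p = 0.0575). At the exit of the pathway, *Pdk1*, which inhibits pyruvate dehydrogenase, was lower at 39.9 and 41.0 CPM against 70.0 and 65.7 CPM (−0.75 ± 0.08), and *Ldha* differed by −0.14 ± 0.08 with no call (adjusted p = 0.204).

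*Egln3*, a prolyl hydroxylase that is itself induced by HIF, had the largest difference on day 4. In 4-OHT-treated FL/FL libraries it had 14.2 and 16.6, 2.33 and 2.44, 1.40 and 1.73, and 1.97 and 1.97 CPM for days 1 to 4. The WT/FL libraries had 16.5 and 16.1, 3.66 and 3.98, 5.23 and 3.04, and 7.43 and 4.58 CPM. Untreated libraries ranged over 4.32 to 5.78, 3.78 to 4.79 and 6.28 to 9.38 CPM for days 2, 3 and 4. Both FL/FL libraries were thus the lowest of their day from day 2 on, and the WT/FL libraries of days 3 and 4 differed between themselves. The day 2 difference of −0.68 ± 0.23 was not called (adjusted p = 0.0564). That of day 3 came to −1.39 ± 0.24 (adjusted p = 0.000121) and that of day 4 to −1.62 ± 0.24, a 3.07-fold lower level (adjusted p = 6.07e-06). Without replicate 1 of the WT/FL group the day 3 value was −0.94 and lost its call (adjusted p = 0.0146).

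*Ankrd37*, a small ankyrin repeat gene induced by HIF, was also lower on days 3 and 4. It had 0.994 and 0.958 CPM on day 3 and 1.22 and 0.848 CPM on day 4 in FL/FL, against 3.60 and 1.79 CPM and 3.85 and 2.40 CPM in WT/FL. The differences were −1.47 ± 0.29 (adjusted p = 0.000436) and −1.60 ± 0.29, a 3.02-fold lower level (adjusted p = 9.62e-05), and both groups were apart on each day. Untreated FL/FL libraries had 2.23 and 2.19 CPM on day 3 and untreated WT/FL libraries 4.27 and 3.15 CPM. The day 3 call was lost without replicate 1 of WT/FL (−0.87, adjusted p = 0.0666) or replicate 2 of FL/FL (−1.44, adjusted p = 0.0117). *Bnip3*, a mitophagy receptor induced by HIF, had 36.1 and 33.7 CPM on day 4 in FL/FL against 57.6 and 51.5 CPM in WT/FL (−0.65 ± 0.10), and *Hif1a* 167 and 186 CPM against 260.0 and 273 CPM (−0.60 ± 0.08). Untreated *Hif1a* was also lower in FL/FL on day 4, at 237 and 229 CPM against 282 and 277 CPM in WT/FL. Part of its day 4 difference was thus present without 4-OHT. *Ndrg1*, another hypoxia-induced gene, differed by 0.27 ± 0.09 with no call (adjusted p = 0.0199).

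**Figure D4:**
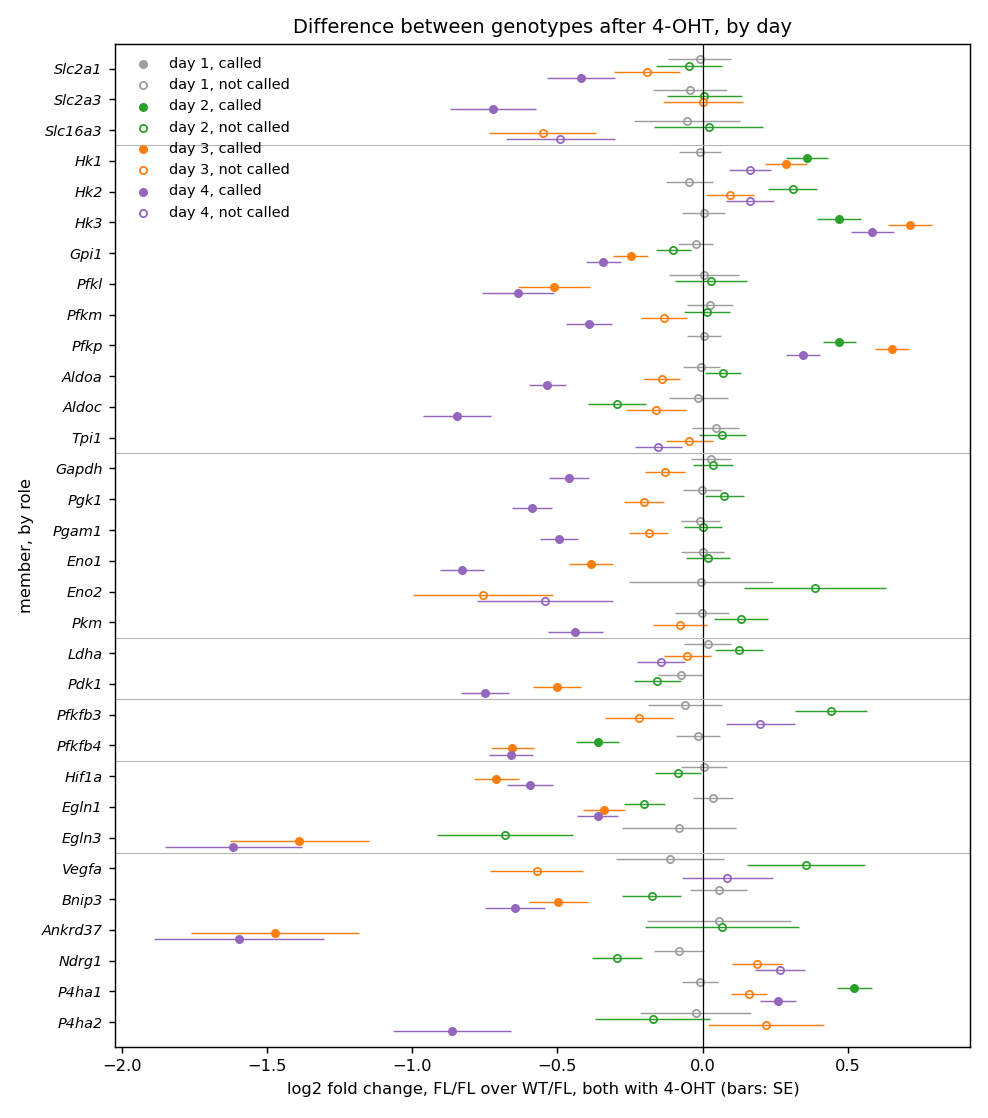
Log2 fold change of *Trex1* FL/FL over WT/FL macrophages, both 4-OHT-treated, on days 1 to 4 (colours) for 32 members by role, with bars of 1 SE and filled points where the adjusted p was below 0.01. All day 1 points are open and near 0, and the filled points of day 4 lie below 0 except for *Hk3*, *Pfkp* and *P4ha1*.

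Day 4 was also compared with day 1 for this difference, as an interaction, and the change was called in 17 members, 2 higher (*Hk3*, 0.58 ± 0.10, and *Pfkp*, 0.34 ± 0.08) and 15 lower, beside 5.49% and 5.15% of all genes. The median was −0.44 against −0.03. *Ankrd37* (−1.65 ± 0.38, adjusted p = 0.00261) and *Egln3* (−1.53 ± 0.31, adjusted p = 0.000664) also passed an absolute log2 change of 1.5, followed by *Aldoc* (−0.83 ± 0.15), *Eno1* (−0.83 ± 0.10) and *Bnip3* (−0.70 ± 0.14). Of all 15257 genes, 167 higher and 159 lower passed a change of 1.5. Without replicate 1 of the 4-OHT-treated WT/FL group of day 4, *Egln3* (−1.14, adjusted p = 0.0116) and *Ankrd37* (−1.26, adjusted p = 0.0392) were no longer called. The call of *Ankrd37* was also lost without replicate 2 of the WT/FL group of day 1 (−1.55, adjusted p = 0.0162), of the FL/FL group of day 1 (−1.55, adjusted p = 0.0126) or of the FL/FL group of day 4 (−1.42, adjusted p = 0.0277).

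Other measures moved with genotype on the same days. The proliferation markers *Mki67*, *Top2a* and *Ccnb1* summed to 20.2 CPM in 4-OHT-treated FL/FL and 105 CPM in WT/FL on day 4. For day 3 these sums were 59.0 and 59.3 CPM, and for day 2 they were 607 and 777 CPM. The share of counts from the mitochondrial chromosome was 1.43% and 1.36% on day 3 and 1.98% and 1.69% on day 4 in 4-OHT-treated FL/FL, against 2.61% and 2.09% and 2.83% and 3.23% in WT/FL. The endothelial list summed to 71.3 CPM in FL/FL and 16.9 CPM in WT/FL on day 2, with 44.5 and 24.8 CPM for day 3 and 36.2 and 10.5 CPM for day 4. It had 3 genes, of which *Kdr*, a VEGF receptor, made up most with a mean of 16.1 CPM, while *Cdh5* and *Pecam1* averaged 0.681 and 2.71 CPM. On day 4 in FL/FL and WT/FL, the macrophage markers summed to 30400 and 31300 CPM, after 27600 and 33000 CPM for day 2 and 39100 and 46900 CPM for day 3. On day 4 the granulocyte and progenitor markers summed to 6.71 and 11.8 CPM, the dendritic cell markers to 0.936 and 1.47 CPM and the fibroblast markers to 0.186 and 0.744 CPM. The mast cell, lymphocyte and erythroid lists stayed at or below 0.144, 0.0253 and 0.0169 CPM in these groups. The part of these measures in the differences of the members was not tested.

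The mix of forms within enzyme families also differed between genotypes under 4-OHT. Shares were computed on CPM per kb of merged exon length after the values had been seen and are given without a test. *Pfkp* made up 56.5% and 57.7% of the 3 phosphofructokinases in 4-OHT-treated FL/FL on day 2, with 42.8% and 42.0% for day 3 and 40.6% and 41.6% for day 4. The 4-OHT-treated WT/FL libraries had 48.8% and 49.9%, 25.6% and 27.2%, and 27.2% and 26.8%. *Pfkl* stood at 41.6% and 42.3% in FL/FL and 54.1% and 54.8% in WT/FL on day 4. *Pfkfb3*, which is higher in kinase activity than *Pfkfb4*, made up 56.5% and 56.0% of the PFKFB pair in FL/FL on day 2 and 71.9% and 71.3% on day 4, against 43.4% and 41.4% and 54.7% and 60.9% in WT/FL. *Hk3* made up 67.8% and 68.2% of the hexokinases on day 4, against 60.2% and 62.4%. On day 1 the 4-OHT-treated genotypes had nearly the same mix, with *Pfkp* at 36.4% and 36.6% in FL/FL and 36.8% and 36.1% in WT/FL.

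**Figure D5:**
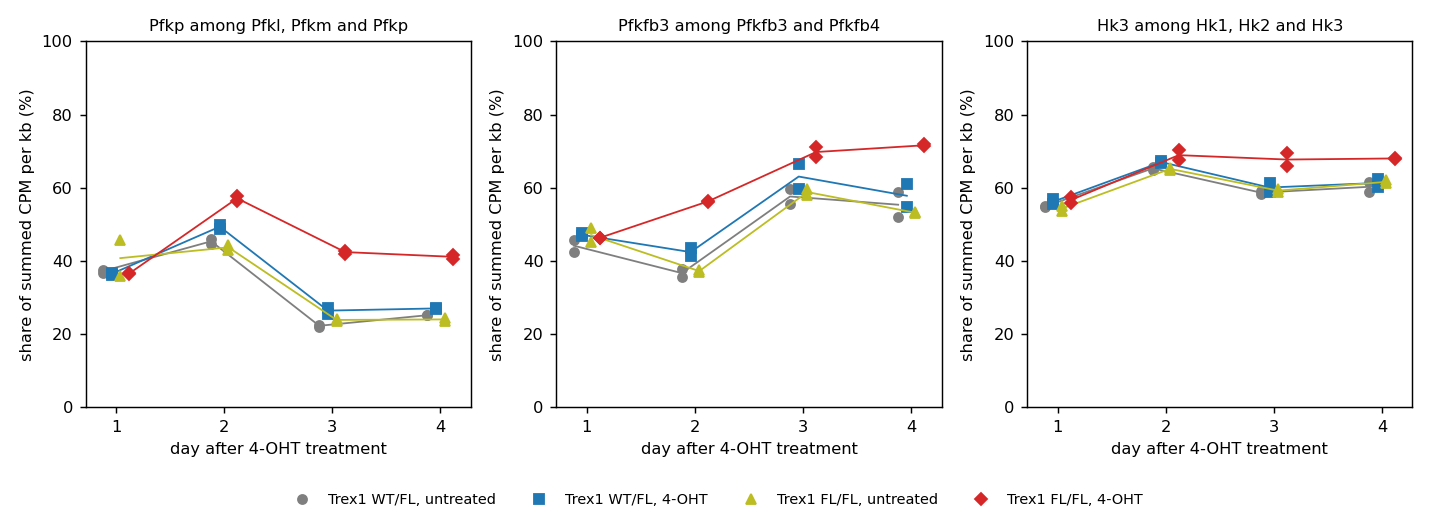
Share of *Pfkp* among the 3 phosphofructokinases, of *Pfkfb3* among the 2 PFKFB genes and of *Hk3* among the 3 hexokinases, in percent of their summed CPM per kb, in every library (points) with group means (lines) over days 1 to 4. The 4-OHT-treated FL/FL libraries lie above the others from day 2 on in each panel, with *Pfkp* at 40.6% and 41.6% on day 4.

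Genes beside the members on the same pathways were also tested. Of 32 other genes of glycolysis, gluconeogenesis and pyruvate use, 22 were tested, and on day 4 under 4-OHT 0 were higher and 4 lower in FL/FL, where 9.84% of all genes were higher and 11.7% lower. *Slc16a1*, the lactate carrier MCT1, differed by −0.61 ± 0.13 on the log2 scale, *Pfkfb2* by −0.42 ± 0.11 and *Pdk3* by −0.35 ± 0.09. On day 3 *Pdk3*, a further pyruvate dehydrogenase kinase, differed by −1.13 ± 0.09 (adjusted p = 1.32e-09), at a mean of 12.4 CPM in FL/FL and 27.1 CPM in WT/FL. In the pentose phosphate pathway, which branches off at glucose 6-phosphate, 1 of 8 genes was higher and 4 were lower on day 4, to be read against the same shares. *Pgd*, the second oxidative enzyme, differed by −0.88 ± 0.09 (272 against 502 CPM, adjusted p = 9.55e-09) and *Taldo1*, transaldolase, by −0.60 ± 0.07. The 4-OHT effect on *Pgd* in WT/FL over days 2 to 4 was also called, at −0.34 ± 0.05 (adjusted p = 0.000106).

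Of 40 other genes of the HIF pathway, 39 were tested, with 5 higher and 12 lower in FL/FL on day 4, beside the shares of 9.84% and 11.7% over all genes. For day 3 the counts were 6 and 6 (6.69% and 5.42% of all genes), and for day 2 they were 5 and 2 (5.69% and 2.48%). *Flt1*, a VEGF receptor, was higher on each of these days and by 2.30 ± 0.35 on day 4 (4.33 against 0.903 CPM, adjusted p = 1.57e-05). *Ak4*, a mitochondrial adenylate kinase, differed by −1.72 ± 0.28 on day 4 (1.16 against 3.82 CPM, adjusted p = 3.99e-05), close in size to *Egln3* and *Ankrd37*. *Slc2a6*, a glucose transporter of the lysosome membrane (GLUT6), was higher by 1.33 ± 0.10 (115 against 45.7 CPM, adjusted p = 7.43e-11), in the direction opposite to *Slc2a1* and *Slc2a3*. In WT/FL cells 2 of the 39 were lower under 4-OHT over days 2 to 4, beside 0.531% of all genes, *Hmox1*, haem oxygenase, at −0.24 ± 0.04 and *Plod1*, lysyl hydroxylase, at −0.21 ± 0.03. In untreated culture *Bhlhe40*, a repressor induced by hypoxia, differed by −3.53 ± 0.10 between day 4 and day 1.

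Genes outside the members were ranked by the Pearson correlation of their log2 CPM group means with those of *Vegfa* and *Pfkfb4* over the 16 groups. The 16 means share 1 course in culture, so high values are common, and the correlations are given as a description. Closest to *Vegfa* were *Accs* (r = 0.961), *Bin2* (0.957), *Ankrd33b* (0.954), *Gm9873* (0.954) and *Gm21926* (0.951). Closest to *Pfkfb4* were *Ralgps2* (r = 0.986), *Ppp1r21* (0.985), *Lpin1* (0.984), *Kctd12b* (0.983) and *Tesk2* (0.982).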

How the data were processed

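RNA of 32 BMDM libraries was sequenced and demultiplexed by the authors, who quantified it against GRCm39 with Salmon and summed transcripts to genes with tximport. The annotation release is not given in the sources used here. The deposited values are these estimated counts per gene, as whole numbers with no normalization, so reads shared by near-identical copies were split by the quantifier. Per the labels' processing notes, FastQC 11.9 and DESeq2 1.32 were also used. Of 54281 identifiers, 51048 matched the GENCODE annotation used here for names and lengths, and the others held 0.32% of counts.

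Groups were taken from genotype, treatment and day in the labels. The counts of all 32 libraries were fitted with 1 mean per group (16 residual degrees of freedom) in edgeR 4.0.16 under R 4.3.3, with TMM factors, a minimum count of 10 (filterByExpr), robust quasi-likelihood dispersions and Benjamini-Hochberg adjustment over 15257 genes. A call is an adjusted p below 0.01 at any fold, and an absolute log2 change above 1.5 was also counted. CPM are scaled by the TMM factors. Effects over several days are means of the daily contrasts. The model was tested on simulated data for the day 4 genotype difference, over 15084 genes: it called 49 of 100 genes changed by 0.5 on the log2 scale and 92 of 100 changed by 1. The changed genes were drawn from those with a mean fitted count above 100, so these rates do not cover genes with fewer counts. Simulated counts followed the fitted means and dispersions. DESeq2 1.42.0, other scalings, filters and thresholds, the removal of each library and, added later, a replicate block were tried as alternatives.

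The members and lists were chosen with earlier results of these data known. Full values are given for *Vegfa*, *Pfkfb4* and up to 5 called members with the largest change in each comparison, and up to 3 called genes of each pathway list. Gene coordinates and exon lengths are from GENCODE (GRCm39), promoters from RefSeq (GRCm38.p6).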

Additional observations from a re-analysis of the deposited data

Results flagged for a closer look

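Members are listed here because an effect differed between groups by a test of the difference itself. The 4-OHT effect over days 2 to 4 differed between FL/FL and WT/FL cells in 16 members called lower and 4 called higher (edgeR quasi-likelihood interaction test). These were 48.5% and 12.1% of the members, beside 7.45% and 8.2% of all genes. The difference was −1.25 for *Egln3*, −0.79 for *Ankrd37*, 0.55 for *Hk3*, −0.52 for *Pfkfb4* and −0.49 for *Aldoc* on the log2 scale. That of *Ankrd37* lost its call in 19 of 24 fits without 1 library.

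The difference between genotypes under 4-OHT changed from day 1 to day 4 in 15 members called lower and 2 called higher. These were 45.5% and 6.06% of the members, beside 5.15% and 5.49% of all genes, so the share called higher was near that over all genes. The change was −1.65 for *Ankrd37*, −1.53 for *Egln3*, −0.83 for *Aldoc*, −0.83 for *Eno1* and −0.70 for *Bnip3*. Both sets of tests share the 4-OHT-treated libraries of day 4.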

How the results depend on the processing

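The labels give no replicate number, animal or batch, but the library numbers in the titles form 2 runs within each genotype. All numbers of FL/FL libraries come before those of WT/FL, so genotype cannot be told apart from any order behind these numbers. A replicate block on these runs, chosen after seeing the data, called 2 members in the 4-OHT effect of WT/FL (*Pfkfb4* joined *Vegfa*), 1 on day 1 (*Vegfa*) and 8 for the genotype difference of day 2. It also called *Vegfa* for that of day 3 and lost *Pfkl* in the difference between 4-OHT effects, and no comparison gained more than 3 members. Over all genes the block raised the calls from 129 to 250 for the 4-OHT effect of WT/FL. For the genotype difference they went from 1246 to 1547 on day 2 and from 3 to 29 in untreated cells. Over 15257 genes, the difference between the runs correlated between groups of a genotype at r = 0.02 to 0.12 in WT/FL and −0.01 to 0.14 in FL/FL. The medians, 0.071 and 0.063, were low but above 0, and whether libraries are paired was not settled. In WT/FL the members' share of counts was higher in replicate 1 than in replicate 2 in each group of days 3 and 4 (0.855% and 0.76%, 0.81% and 0.723%, 1.04% and 0.931%, 0.973% and 0.846%). Of 1186 values of single members under the alternatives, 1091 kept their direction and side of the threshold, 70 kept only their direction, 13 became called and 12 changed sign. The 12 were all *Vegfa* values that were not called, without 1 library: the genotype difference in untreated cells ran from −0.074 to 0.035 (0.002, 0.035 and 0.008 changed sign), the difference between 4-OHT effects from −0.10 to 0.08 (0.005, 0.045, 0.003, 0.079, 0.022, 0.003 and 0.015), the genotype difference under 4-OHT from −0.24 to 0.02 on day 1 (0.024) and from −0.03 to 0.21 on day 4 (−0.032).

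The number of members called depended on the threshold. With an absolute log2 change above 1.5 it was 2 for the 4-OHT effect in FL/FL, 0 for its difference from WT/FL, 0, 0 and 2 for the genotype difference on days 2, 3 and 4, 3 for untreated day 4 against day 1, 11 and 3 for the same in 4-OHT-treated FL/FL and WT/FL, and 2 for the change from day 1 to day 4. Of all 15257 genes, that rule called 211 higher and 101 lower for the 4-OHT effect in FL/FL, and 132 and 48 for its difference. For the genotype difference it called 76 and 13 on day 2, 74 and 59 on day 3, and 252 and 202 on day 4. From day 1 to day 4 it called 1215 and 1300 in untreated cells, and 1150 and 1358 in 4-OHT-treated FL/FL. In 4-OHT-treated WT/FL it called 1054 and 1181, and for the change of the genotype difference 167 and 159. At an adjusted p below 0.05 the number of members called was 2 for the 4-OHT effect in WT/FL and 8 on day 2. Fitted on the compared libraries alone, it was 2 for WT/FL and 7 on day 3, and with DESeq2 2 for WT/FL and 1 for day 1. Without 1 library it ran from 1 to 2 for WT/FL, 0 to 3 for the 4-OHT effect of day 1, 3 to 6 for the genotype difference of day 2 and 4 to 13 for that of day 3. Counts over all genes are given here for the fold rule only. Apart from the stricter or looser rule itself, the cause was not tested. Depth limits *Adm*, *Eno2*, *Ankrd37*, *P4ha2* and *Egln3*, the 5 members with the fewest counts. Members without a call cannot be taken as unchanged.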
